A study of Homo sapiens with 8 samples.

Results

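Of the 58870 gene rows in the expression table, 9 were examined here: the laminin chains LAMA3, LAMA5, LAMB1, LAMB2, LAMB3 and LAMC1 and the collagen chains COL4A1, COL4A2 and COL17A1, each matched by its symbol. They were read in 8 RNA sequencing libraries of Panc 10.05, an established line grown from a human pancreatic ductal adenocarcinoma. The labels put 4 libraries in a control group and 4 in a group that carries an ELAPOR1 transgene (ELAPOR1 overexpression). They name no other agent or allele for either group. They do not state the vector or promoter of the transgene, what the control cells carried, whether either group was a clone, or whether the replicates were separate cultures, so that p-values measure the spread between these libraries, which may be technical.

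Basement membranes are thin sheets of matrix under epithelia, built from a laminin network and a type IV collagen network. Each laminin is a trimer of an alpha, a beta and a gamma chain, and the 3 chains assemble inside the cell before secretion. LAMA3 and LAMB3 belong to the laminin that anchors epithelial cells through hemidesmosomes, while LAMA5 with LAMB1 or LAMB2 and LAMC1 forms the trimers common to most mature epithelial basement membranes. COL4A1 and COL4A2 encode the chains of the ubiquitous type IV collagen, and COL17A1 encodes a transmembrane collagen of the hemidesmosome. In pancreatic carcinoma, type IV collagen is made largely by stromal and vascular cells.

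Library totals ran from 16558600 to 18128757 counts in control and from 13765509 to 17258166 in ELAPOR1 libraries. ELAPOR1 itself had 1 to 4 counts in the control libraries and 5910 to 7368 in the ELAPOR1 libraries, so all 8 matched their labels. Of 7 markers of ductal carcinoma epithelium, 7 had a mean of at least 1 CPM (counts per 1e6 of scaled library size), and their summed level was 12010 to 13280 CPM in control and 11240 to 11580 CPM in ELAPOR1 libraries. Of 10 fibroblast markers, 2 reached 1 CPM (COL1A1 and ACTA2), with sums of 4.43 to 5.54 and 3.74 to 4.54 CPM, and DCN, LUM, COL1A2 and THY1 had no count in any library. Of 5 endothelial markers 1 did (VWF), with sums of 1.65 to 2.13 CPM in control and 0.576 to 0.998 CPM in ELAPOR1 libraries and no count of CDH5, and of 5 leukocyte markers none did. The epithelial and endothelial sums were lower in every ELAPOR1 library, and their part in the results was not tested. Within the epithelial list KRT8, KRT18 and MUC1 were called lower, KRT7, KRT19 and CDH1 were called higher, and EPCAM was not called. In bulk RNA, fewer cells with a transcript and less of it per cell cannot be told apart.

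The laminin chains moved in opposite directions. LAMA3 and LAMB3, the alpha and beta chains of the hemidesmosomal laminin, rose 1.82-fold and 1.67-fold in ELAPOR1 libraries, and COL17A1 rose 1.29-fold. LAMA5, LAMB1 and LAMB2, the alpha and beta chains of the other trimers, fell 1.29-fold, 1.25-fold and 1.33-fold. LAMC1, the gamma chain that LAMA5 trimers need, had a log2 change of 0.012, and COL4A1 and COL4A2 were at the edge of detection in all 8 libraries. Of the 9 genes, 7 passed the filter on low counts, and 6 of these 7 were called (3 higher, 3 lower) by edgeR's quasi-likelihood test at an adjusted p-value under 0.05. The same test called 44.7% of the 13860 genes tested, 22.6% as higher and 22.1% as lower, so many genes of any kind were called in this comparison. The 6 called members were also those whose groups did not overlap, which held for 39.4% of all tested genes. The median log2 fold change of the 7 tested members was 0.012, and that of all tested genes was 0.001.

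**Figure D1:**
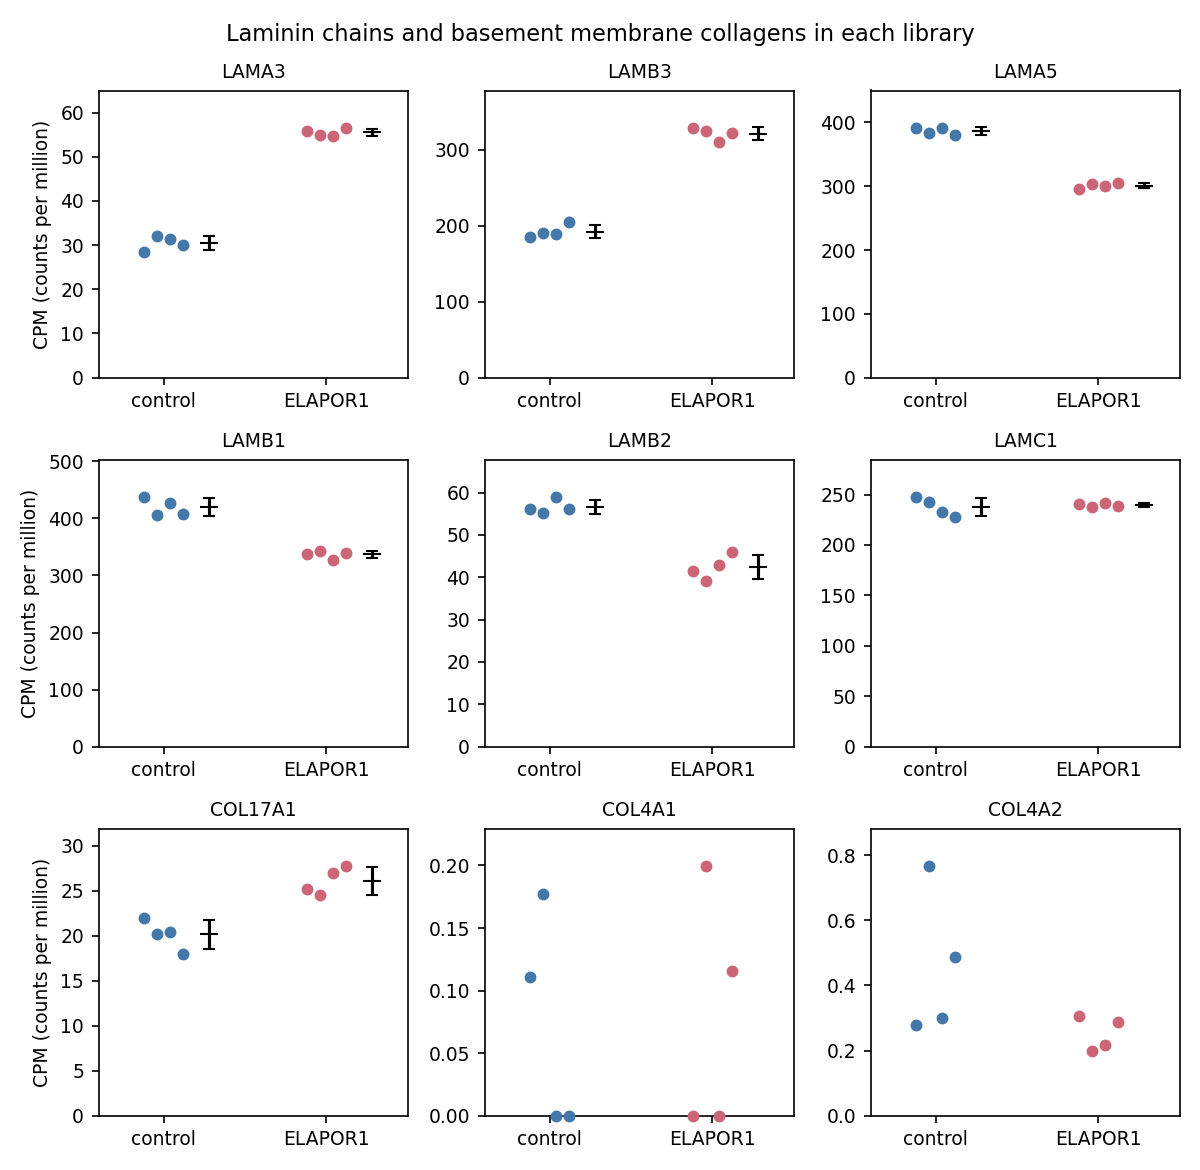
Level of each gene in CPM (y axis, from 0, a scale per panel) in the 4 control and 4 ELAPOR1 libraries (points), with the mean and SD beside them except for COL4A1 and COL4A2. The groups do not overlap for LAMA3, LAMB3, LAMA5, LAMB1, LAMB2 and COL17A1, and they overlap for LAMC1, COL4A1 and COL4A2.

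LAMA3 (ENSG00000053747.16, GRCh38 chromosome 18 in GENCODE release 29, as for all genes here, 23689443 to 23956222, plus strand) encodes the alpha chain that binds integrins of hemidesmosomes. Its level was 28.4, 32.2, 31.3 and 30.1 CPM in the control libraries and 55.9, 55.0, 54.8 and 56.5 CPM in the ELAPOR1 libraries. Every ELAPOR1 library was above every control library, which was so for 20.0% of all tested genes. The means were 30.5 ± 1.65 and 55.6 ± 0.800 CPM (n = 4 per group, SD), a log2 change of 0.87 with SE 0.0533 (adjusted p = 3.2e-15, edgeR). Of the genes tested, 3.46% changed by more in either direction.

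LAMB3 (ENSG00000196878.15, chromosome 1, 209614870 to 209652466, minus strand) encodes the beta chain of the hemidesmosomal laminin. It was at 185, 190.5, 189 and 205 CPM in control and at 329, 325, 309.9 and 321 CPM in ELAPOR1 libraries, again without overlap. On the log2 scale the change was 0.74 with SE 0.0330 (adjusted p = 5.2e-19, edgeR), and 5.18% of tested genes changed by more. LAMA3 and LAMB3 were also the members called in a test against a 1.5-fold change (edgeR glmTreat), which called 1.55% of all tested genes. Their 95% intervals were 0.76 to 0.98 for LAMA3 and 0.67 to 0.81 for LAMB3, which overlap. Both come from the same libraries, so the overlap does not compare the 2 rises. The ratio of the 2 chains, given below, does.

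Sequence upstream of the transcription start is shown for the 2 members that rose by over 1.5-fold and for LAMA5 and LAMB1, the more abundant of those that fell. The stretches are the 250 bases before a start in RefSeq (GRCh38.p14), 5′ to 3′ on the gene's strand. Capitals mark matches to TGANTCA and to GGGCGG, the GC box bound by Sp1 factors, read on both strands. No matches of the 2 motifs overlapped. TGANTCA covers TGACTCA and TGAGTCA, the core bound by AP-1 factors, but leaves the middle base open and so is looser than that core. The LAMA3 stretch precedes a start at 23873020, inside the annotated gene and not at its outermost start. RefSeq lists 3 starts for LAMB3, and the innermost is printed because it holds the TGANTCA match. The gene counts do not tell which start was used.
LAMA3, chr18:23872770-23873019, plus strand: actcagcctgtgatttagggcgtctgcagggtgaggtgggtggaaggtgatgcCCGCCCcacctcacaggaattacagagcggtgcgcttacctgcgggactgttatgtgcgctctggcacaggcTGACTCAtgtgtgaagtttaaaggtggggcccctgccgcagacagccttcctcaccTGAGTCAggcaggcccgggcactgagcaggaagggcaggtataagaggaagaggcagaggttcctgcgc
LAMB3, chr1:209651375-209651624, minus strand: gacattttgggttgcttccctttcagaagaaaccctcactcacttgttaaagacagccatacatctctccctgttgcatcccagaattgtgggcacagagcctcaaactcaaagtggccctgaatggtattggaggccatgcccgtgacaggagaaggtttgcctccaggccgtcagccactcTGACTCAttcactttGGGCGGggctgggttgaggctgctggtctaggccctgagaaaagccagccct
LAMA5, chr20:62367313-62367562, minus strand: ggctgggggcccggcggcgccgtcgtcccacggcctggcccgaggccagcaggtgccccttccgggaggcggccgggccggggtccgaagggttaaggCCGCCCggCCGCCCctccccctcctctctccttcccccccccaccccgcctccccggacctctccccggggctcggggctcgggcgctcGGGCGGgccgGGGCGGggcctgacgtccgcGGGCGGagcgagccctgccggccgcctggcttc
LAMB1, chr7:108003162-108003411, minus strand: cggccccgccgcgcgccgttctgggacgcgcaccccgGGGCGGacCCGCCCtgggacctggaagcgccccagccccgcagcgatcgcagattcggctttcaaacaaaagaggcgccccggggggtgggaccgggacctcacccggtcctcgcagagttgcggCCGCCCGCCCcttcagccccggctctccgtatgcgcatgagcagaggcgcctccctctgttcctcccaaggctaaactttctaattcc

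The LAMA3 stretch held 2 TGANTCA matches, starting 125 and 69 bases before the transcription start, and the LAMB3 stretch held 1, starting 67 bases before it. No TGANTCA was found in the other 2 windows of LAMB3 or in the windows of the other 7 members. These include COL17A1, which was also called higher. Among all 35116 RefSeq windows of this length, 6.57% held a match and 0.402% held 2 or more. LAMA5 had 5 GGGCGG matches and LAMB1 had 4, of which 2 share bases, against 1 each in the printed stretches of LAMA3 and LAMB3, and 42.6% of all windows had at least 1. LAMB2, which fell most, had 1 match and 58.4% GC, and LAMC1, which was not called, had 3 matches and 79.6% GC. COL17A1, which rose, had 0 matches and 40.4% GC. Whether matches or GC content are related to the direction of change was not tested. GC content was 82.8% in the LAMA5 and 70.4% in the LAMB1 stretch, 60.4% in that of LAMA3 and 54.0% in that of LAMB3. The other 2 windows of LAMB3 had 64% and 60% GC, and the median over all windows was 58.0%. A match describes letters only, and binding was not measured.

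LAMA5 (ENSG00000130702.15, chromosome 20, 62307955 to 62367312, minus strand) encodes the alpha chain of most adult epithelial laminins. It fell from 391, 384, 391 and 379.8 CPM in control to 295, 303, 300.3 and 305 CPM in ELAPOR1 libraries. The groups did not overlap, and 19.4% of all tested genes were lower in every ELAPOR1 library than in every control library. On the log2 scale the change was -0.36 with SE 0.0285 (adjusted p = 1.5e-12, edgeR). In the annotation LAMA5 overlaps ADRM1 and LAMA5-AS1 on the opposite strand, and the use of strand in counting is not given in the sources used here.

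LAMB1 (ENSG00000091136.14, chromosome 7, 107923799 to 108003255, minus strand) encodes the beta chain that pairs with LAMC1 in the widespread laminins. Control libraries held 437.5, 405, 427 and 408 CPM and ELAPOR1 libraries 337, 344, 328 and 339 CPM, without overlap. On the log2 scale the change was -0.32 with SE 0.0303 (adjusted p = 1.5e-10, edgeR). LAMB1 overlaps DLD and the antisense transcript AC005046.1 on the other strand.

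LAMB2 (ENSG00000172037.14, chromosome 3, 49121114 to 49133118, minus strand) encodes the alternative beta chain, known from synapses and the kidney filter. It was at 56.05, 55.1, 59.0 and 56.2 CPM in control and at 41.55, 39.1, 42.9 and 45.9 CPM in ELAPOR1 libraries. The groups were separate, although the ELAPOR1 libraries spread more than the controls. On the log2 scale the change was -0.42 with SE 0.0521 (adjusted p = 4.6e-08, edgeR).

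LAMC1 (ENSG00000135862.6, chromosome 1, 183023460 to 183145592, plus strand) encodes the gamma chain shared by most laminins other than the hemidesmosomal one. Its level was 248, 242, 233 and 228 CPM in control and 240.5, 238, 242 and 238.5 CPM in ELAPOR1 libraries. The ELAPOR1 libraries lay inside the range of the controls. The log2 fold change of 0.012 with SE 0.0315 (adjusted p = 0.79, edgeR) had a 95% interval of -0.052 to 0.076, so smaller changes in either direction were not resolved.

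**Figure D2:**
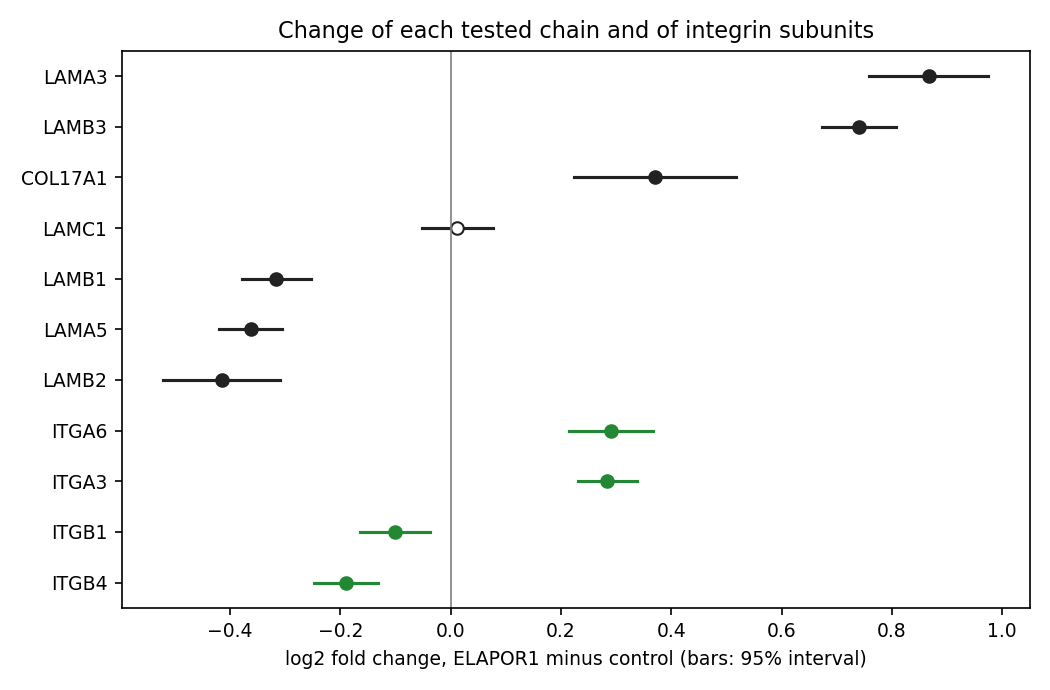
Log2 fold change of ELAPOR1 against control (x axis) with its 95% interval (bars) for the 7 tested members (black) and 4 integrin subunits (green), filled where the adjusted p was under 0.05. LAMA3 at 0.87 and LAMB3 at 0.74 lie to the right, LAMB2 at -0.42 to the left, and the interval of LAMC1 spans 0.

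Comparing chains with each other needs their length, so CPM was divided by the length in kilobases of the longest coding transcript. In control cells the order of these levels was LAMB1 (72.7 ± 2.68 CPM per kilobase, SD, n = 4), LAMB3 (44.7 ± 2.02), LAMA5 (33.8 ± 0.499), LAMC1 (30.1 ± 1.13), LAMB2 (9.97 ± 0.293), COL17A1 (3.54 ± 0.288) and LAMA3 (2.86 ± 0.155). Each of these neighbours differed by more than their SDs. In ELAPOR1 cells LAMB3 stood first at 74.6 ± 1.87, before LAMB1 at 58.4 ± 1.16 CPM per kilobase. LAMC1 (30.4 ± 0.257) then stood above LAMA5 (26.3 ± 0.369), a reversal of the control order. LAMA3 was at 5.21 ± 0.0750 and COL17A1 at 4.58 ± 0.266 CPM per kilobase. LAMA3 stood below LAMB3 per kilobase in both groups. Its level depends on the transcript: with the 5671 bases of the short transcript in place of 10661, it was 5.38 ± 0.290 in control and 9.795 ± 0.141 CPM per kilobase in ELAPOR1 libraries, still below LAMB3 but above COL17A1 in both groups, so the control order of LAMA3 and COL17A1 rests on the transcript chosen.

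On this scale LAMB3 made up 33.4%, 35.6%, 34.2% and 37.1% of the 3 beta chains in the control libraries and 53.7%, 53.1%, 52.8% and 52.7% in the ELAPOR1 libraries. LAMB1 went from 57.1 ± 1.61% to 41.6 ± 0.353% of the beta chains, and LAMB2 from 7.83 ± 0.192% to 5.32 ± 0.387% (n = 4 per group, SD). LAMA3 was 7.79 ± 0.427% of LAMA3 plus LAMA5 in control and 16.5 ± 0.261% in ELAPOR1 libraries. With the short LAMA3 transcript these were 13.7 ± 0.704% and 27.1 ± 0.373%. LAMB3 thus passed LAMB1 among the beta chains, whereas LAMA5 stayed the larger of the 2 alpha chains.

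**Figure D3:**
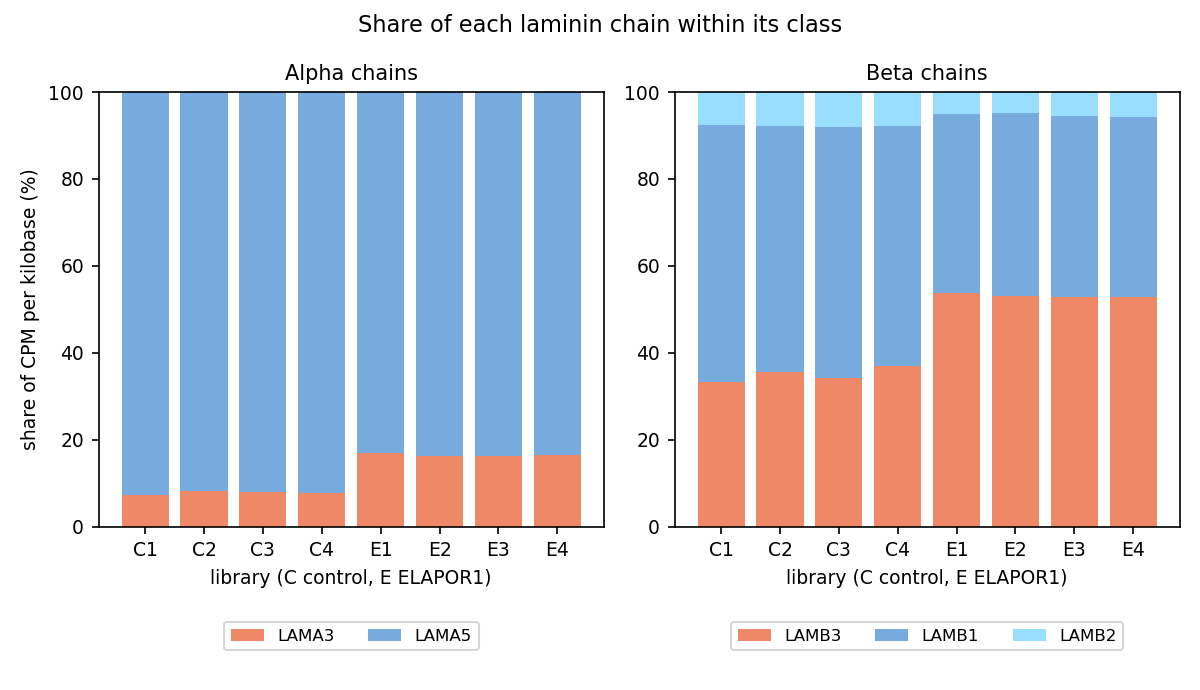
Share of each laminin chain among the chains of its class (y axis, percent of CPM per kilobase) in each library, C1 to C4 for control and E1 to E4 for ELAPOR1 (x axis). LAMB3 takes 33.4% to 37.1% of the beta chains in control and 52.7% to 53.7% in ELAPOR1 libraries.

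Ratios between chains within a library do not depend on scaling between libraries, and 6 of them were tested by two-sided exact permutation of the library labels; p-values were adjusted for the 6 tests (Benjamini-Hochberg). The log2 ratio of LAMA3 to LAMA5 was -3.62 ± 0.0844 in control and -2.42 ± 0.0269 in ELAPOR1 libraries (n = 4 per group, SD), a 2.31-fold shift (exact p = 0.0286, the smallest that 4 against 4 libraries can give, adjusted p = 0.0429). LAMB3 to LAMB1 went from -1.12 ± 0.107 to -0.069 ± 0.0214, a 2.08-fold shift between the group means, without overlap (exact adjusted p = 0.0429). In both ratios each chain alone separated the groups, in opposite directions, so the separation and the smallest exact p were already fixed. Neither p adds to the single-gene results. LAMA5 to LAMC1 fell by 0.37, from 0.70 ± 0.0469 to 0.33 ± 0.0290 (exact adjusted p = 0.0429). LAMA5 alone separated the groups here too, by more than LAMC1 varied over all libraries, so this exact p was also fixed. It adds nothing to the LAMA5 result, and the adjusted values rest on these ratios being adjusted together.

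The ratios of LAMA3 to LAMB3 and of LAMB1 to LAMB2 did not pass. LAMA3 to LAMB3 was -2.62 ± 0.0935 in control and -2.51 ± 0.0319 in ELAPOR1 libraries, a difference of 0.11 (exact adjusted p = 0.103), and without control replicate 2 it was 0.14 and passed (exact adjusted p = 0.0343). LAMB1 to LAMB2 was 2.87 ± 0.0507 and 2.96 ± 0.108, a difference of 0.096 (exact adjusted p = 0.171). These tests had few libraries, and a p that misses the threshold does not show that the ratios were equal. COL4A1 to COL4A2 was not computed, since both were under 1 CPM in every library.

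**Figure D4:**
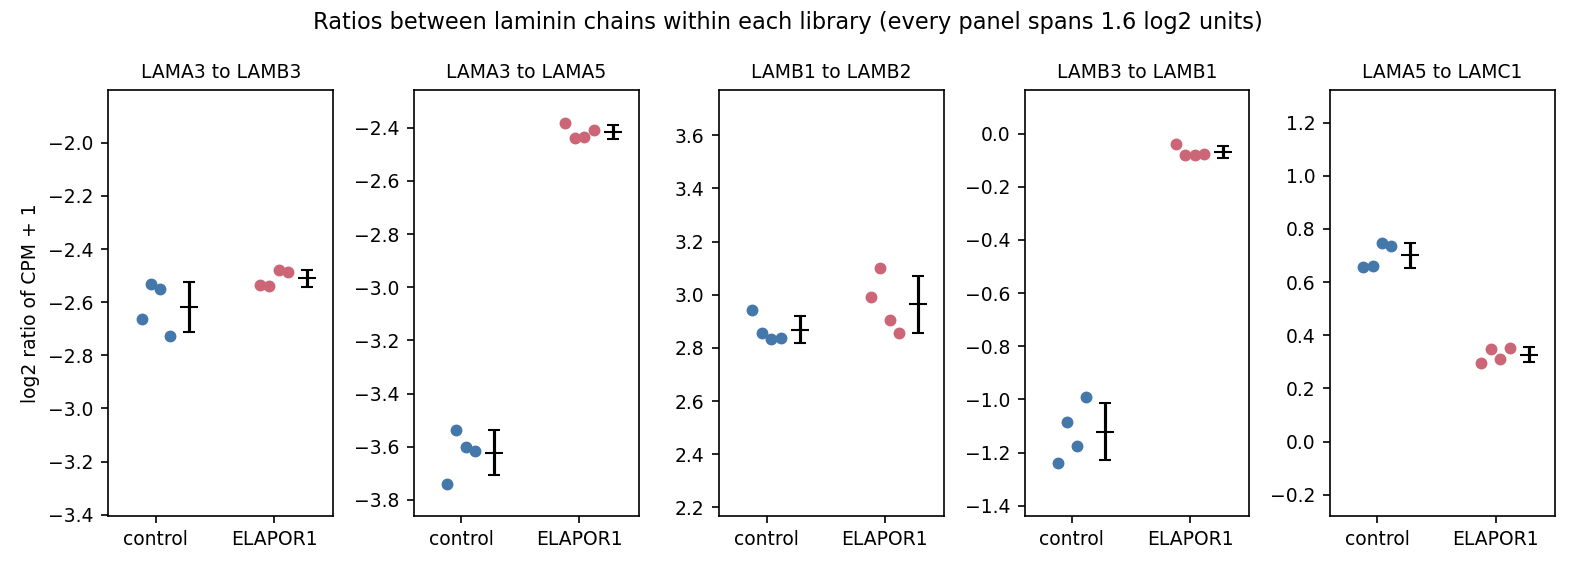
Log2 ratio of CPM + 1 between pairs of laminin chains (y axis, each panel over an equal span) in the 4 control and 4 ELAPOR1 libraries (points), with mean and SD. The groups separate for LAMA3 to LAMA5, LAMB3 to LAMB1 and LAMA5 to LAMC1, and overlap for LAMA3 to LAMB3 and LAMB1 to LAMB2.

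COL17A1 (ENSG00000065618.20, chromosome 10, 104031286 to 104085957, minus strand) encodes the transmembrane collagen XVII, which links hemidesmosomes to the hemidesmosomal laminin. It was at 21.95, 20.2, 20.4 and 18.0 CPM in control and at 25.2, 24.5, 26.9 and 27.75 CPM in ELAPOR1 libraries. Its groups did not overlap, with 24.5 CPM the lowest ELAPOR1 and 21.95 CPM the highest control value. On the log2 scale the change was 0.37 with SE 0.0722 (adjusted p = 7.2e-05, edgeR).

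COL4A1 (ENSG00000187498.16, chromosome 13, 110148963 to 110307233, minus strand) had 2, 3, 0 and 0 counts in the control and 0, 3, 0 and 2 counts in the ELAPOR1 libraries. COL4A2 (ENSG00000134871.18, chromosome 13, 110305812 to 110513209, plus strand) had 5, 13, 5 and 8 counts in control and 5, 3, 3 and 5 in ELAPOR1 libraries. Neither passed the filter, and COL4A1 was at or under 3 counts in every library, which corresponds to 0.166 to 0.216 CPM, so no fold change is given for it. For COL4A2, with 31 counts in all control and 16 in all ELAPOR1 libraries, a fit without the filter gave a log2 change of -0.83 with SE 0.617 (adjusted p = 0.37, edgeR). A change of COL4A1 was not detectable at this depth, and for COL4A2 the SE leaves the size of any change poorly resolved.

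The 2 genes stand head to head. Between their RefSeq starts lie 126 bases, shown because they are upstream of both genes, which were near 0 in all libraries. The GENCODE models reach farther and overlap each other, so the annotations differ on where the 2 genes start. It had 1 GGGCGG match (capitals), no TGANTCA and a GC content of 80.2%.
COL4A1 to COL4A2 interval, chr13:110307158-110307283, plus strand: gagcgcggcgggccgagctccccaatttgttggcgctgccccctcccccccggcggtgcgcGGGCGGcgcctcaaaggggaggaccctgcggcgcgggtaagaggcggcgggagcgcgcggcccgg

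Of the other type IV collagen chains, which form the networks of kidney and other specialised membranes, COL4A3 and COL4A4 passed the filter. COL4A4 was at 15.7 ± 0.780 CPM in control libraries and 13.1 ± 0.970 CPM in ELAPOR1 libraries (n = 4 per group, SD), a log2 change of -0.26 (adjusted p by edgeR = 0.012). COL4A3 was at 4.68 ± 0.623 and 4.14 ± 0.0835 CPM, with a log2 change of -0.18 that did not pass (adjusted p = 0.37). COL4A5, with which both assemble, and COL4A6, a partner of COL4A5, had at most 2 and 14 counts in a library. Per kilobase, COL4A4 was at 1.56 CPM in control libraries, against 0.0109 for COL4A1 and 0.0705 for COL4A2. LAMA2, another alpha chain, was tested and did not pass (log2 fold change 0.18, adjusted p by edgeR = 0.64), and LAMA1, LAMA4, LAMB4 and LAMC3 did not pass the filter.

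Other basement membrane components were mostly lower. Of 18 listed genes 8 were tested, and the 5 called were all lower, while 22.1% of all tested genes were called lower. They were the proteoglycans HSPG2 and AGRN, COL18A1, TINAGL1 and NTN4. The median log2 fold change of the 8 was -0.31. NTN4, a netrin that binds LAMC1, fell from 32.3 ± 1.55 to 21.3 ± 1.76 CPM (n = 4 per group, SD), a log2 change of -0.60 (adjusted p by edgeR = 5.6e-09). COL18A1, the source of endostatin, fell from 42.2 ± 0.270 to 32.7 ± 0.254 CPM (-0.37, adjusted p by edgeR = 6.8e-07). NID1 and NID2, the nidogens that tie laminin to type IV collagen, did not pass the filter.

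Among laminin and collagen receptors, the 3 called integrin alpha subunits were higher and the 2 called beta subunits lower in ELAPOR1 libraries. Of 15 receptor and hemidesmosome genes, all tested, 11 were called (73.3%, against 44.7% of all tested genes), 7 higher and 4 lower, with a median log2 fold change of 0.089. ITGA3 and ITGA6, the alpha subunits that bind LAMA3 and LAMA5 trimers, rose from 568 ± 1.82 to 692 ± 8.02 CPM (0.28, adjusted p by edgeR = 6.9e-11) and from 223 ± 15.1 to 273 ± 6.49 CPM (0.29, adjusted p = 2.1e-07). ITGB4, the beta subunit of hemidesmosomes, fell from 473 ± 10.9 to 415 ± 10.3 CPM (-0.19, adjusted p by edgeR = 1.8e-06), and ITGB1, the partner of ITGA3, fell from 472 ± 23.4 to 440.3 ± 4.66 CPM (-0.10, adjusted p = 8.0e-03; n = 4 per group, SD). PLEC and DST, also of hemidesmosomes, were called higher (0.31, adjusted p by edgeR = 4.2e-11, and 0.15, adjusted p = 9.9e-04). Both were named after their values were seen. ITGA2, a collagen receptor subunit, changed most in the list, by 0.38 (adjusted p by edgeR = 5.5e-09), followed by the syndecan SDC4 at 0.36 (adjusted p = 1.8e-12).

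Of 20 genes for collagen modification and secretion, 18 were tested and 10 called (55.6%, near the 44.7% of all tested genes), 8 lower and 2 higher, with a median of -0.064. SEC24D, a coat protein of the vesicles that carry procollagen, changed by -0.57 (adjusted p by edgeR = 2.9e-07), and CRTAP, part of the prolyl 3-hydroxylation complex, by -0.44 (adjusted p = 1.1e-10). Among 22 proteases and inhibitors, 13 were tested and 8 called (61.5%, against the same 44.7%), 7 of them lower, with a median of -0.13. The plasminogen activator PLAT fell from 7.66 ± 0.702 to 3.58 ± 0.272 CPM (-1.10, adjusted p by edgeR = 4.1e-08; n = 4 per group, SD). Of 13 interstitial collagens and fibronectin, 6 were tested and 3 called, all higher, with a median of 0.044; this share is near the 44.7% of all tested genes. These were COL12A1 at 0.79 (adjusted p by edgeR = 3.6e-05), COL5A2 at 0.83 (adjusted p = 0.011) and FN1 at 0.18 (adjusted p = 9.8e-04); COL5A2, at 1.36 ± 0.541 and 2.42 ± 0.374 CPM with overlapping groups, was named after its value was seen.

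**Figure D5:**
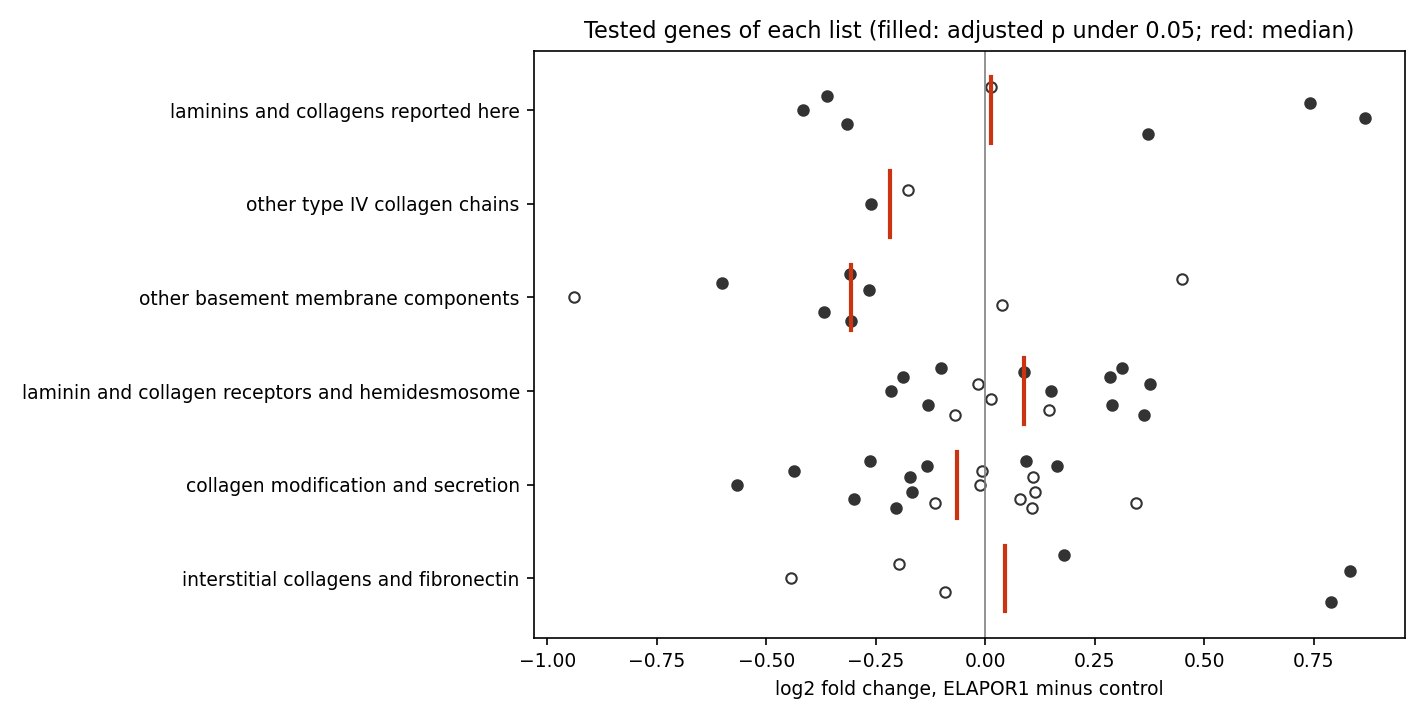
Log2 fold change of ELAPOR1 against control (x axis) for each tested gene (points, filled where the adjusted p was under 0.05) of the laminin and collagen genes reported here and of 5 related lists, with the list median in red. The reported genes fall on both sides of 0, and the other basement membrane components have a median of -0.31.

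Genes with the most similar profile to each member were sought by Pearson correlation of log2(CPM + 1) over the 8 libraries among the 10723 genes whose mean reached 5 CPM. Because the libraries form 2 groups, this measure mainly follows the group difference, and it is given as a description. For LAMA3 the nearest genes were LDHA, UBFD1 and NEGR1 (r from 0.997 to 0.998), and for LAMB3 they were TUBA1C, MCM5 and ATF5 (0.998 to 0.999). For LAMA5 they were NAP1L1, C11orf54 and SLC29A2 (0.997 to 0.998), for LAMB1 CEP57, TAF9 and SH3YL1 (0.991 to 0.996), and for LAMB2 PAFAH1B3, AL354740.1 and LRP10 (0.987 to 0.994). IQGAP1 (0.992) and MACC1 (0.989) were among the 3 nearest of COL17A1, and for LAMC1 they were TMEM245, RNF20 and OSBPL8 (0.949 to 0.975). No member was among the 3 nearest of another: LAMA3 ranked 66 of 10722 in the order for LAMB3, and LAMA5 ranked 17 in that for LAMB1.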

How the data were processed

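RNA was extracted with TRIzol, per the labels' protocols, and sequenced on an Illumina NextSeq. The authors deposited 1 table of expected counts (RSEM gene estimates, unscaled), and the submitters' processing notes name cutadapt, STAR, RSEM, DESeq2 and hg38; versions, annotation and strand use are not given in the sources used here. Of nonzero values 15.0% were not whole. Coordinates, overlaps and transcript lengths are from GENCODE release 29 (GRCh38), where 58597 of 58870 gene IDs were found without version. Promoter sequences are from RefSeq (GRCh38.p14), with 11 windows covering all 9 members.

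Expected counts were rounded and entered edgeR (version 4.0.16, R 4.3.3): filterByExpr, TMM scaling, robust quasi-likelihood test, two-sided, Benjamini-Hochberg adjustment over 13860 genes, called under 0.05. CPM are counts per 1e6 of TMM-scaled library size. The SE is the log2 fold change divided by the square root of F, and intervals are 95%. Ratios used log2(CPM + 1). The fit was tested on simulated data. Alternatives included DESeq2 1.42.0 and limma-voom (limma 3.58.1); plots used matplotlib 3.10.9.

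Members and gene lists were chosen with earlier results of these data known. Named were the members, 4 integrin subunits, every tested laminin and type IV collagen chain, and the 2 called genes of each other list with the largest change at a mean of at least 5 CPM. All 132 listed genes (members, lists and cell type markers) were found. ELAPOR1 is listed as KIAA1324. One of the 6 ratios and some genes that this rule names are not reported here.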

Additional observations from a re-analysis of the deposited data

Results flagged for a closer look

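One library stood apart from the rest of its group in 1 of 70 groups of 4 examined (library totals, CPM of the named genes and ratios), where 3.5 would be found by chance. The log2 ratio of LAMB3 to LAMB1 was -0.0369 in ELAPOR1 replicate 1 and between -0.0814 and -0.0769 in the other ELAPOR1 libraries. The gap is small beside the difference of 1.05 between groups, and its cause was not tested.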

How the results depend on the processing

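All alternatives were planned. The member counts of 6 called, 3 higher and 3 lower, were kept under other scalings, DESeq2, limma-voom, both filters, GC and length removal, an adjusted p under 0.01 and with any library left out. The test against a 1.5-fold change called 2 members (LAMA3 and LAMB3), 0 of those lower (0 at unadjusted p under 0.05, but 3 by DESeq2 and by limma-voom against no change) and 215 genes in all. By that test 3 genes were called among proteases and inhibitors, and 0 in the other 6 lists, where 1 had an unadjusted p under 0.05, while DESeq2 called 29 and limma-voom 30 of their genes against no change. No filter gave 2 called other laminin chains instead of 1. An adjusted p under 0.01 gave 0 other type IV chains (edgeR; COL4A4 was at 0.012, with an unadjusted p under 0.05). LAMC1 turned to -0.038 with GC and length trends removed and to -0.007 without control replicate 4, and LAMA2 to -0.012 without ELAPOR1 replicate 1, none of them called; over single libraries left out they reached up to 0.027 and 0.29. The log2 ratio of LAMA3 to LAMB3 passed with a pseudocount of 0.1 (0.124) and ranged from 0.071 to 0.137 over single libraries left out; the cause was not tested. Without single libraries, called genes numbered 5557 to 6316. Same-numbered libraries did not deviate together (r of -0.112, 0.0355, 0.0217 and -0.0848 across genes), and with the replicate block 5926 genes and 6 members were called. Depth limits COL4A1 and COL4A2, with at most 13 counts in a library.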
